A study of Mus musculus with 30 samples.

Results

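Pf4, Ppbp and Ccl5 encode 3 chemokines that platelets carry and release. The identifiers in the deposited count matrices of platelets and of peripheral blood mononuclear cells (PBMCs) were mapped to mouse gene symbols, and the rows of these 3 genes were taken out of 54532 genes in all. On GRCm38, Pf4 (ENSMUSG00000029373) lies on chromosome 5 from 90772435 to 90773383 on the plus strand. Ppbp (ENSMUSG00000029372) lies just before it on the same strand, from 90768518 to 90770063, with 2371 bases between its end and the start of Pf4. Ccl5 (ENSMUSG00000035042) lies on chromosome 11 from 83525778 to 83530518 on the minus strand. All 3 are protein coding, and 0 annotated genes overlap any of them.

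Pf4 is platelet factor 4 (CXCL4), a CXC chemokine that binds heparin. Ppbp is the precursor from which CXCL7 and related peptides, such as beta-thromboglobulin and NAP-2, are cut, and NAP-2 draws in neutrophils through CXCR2. Megakaryocytes transcribe both genes, pack the proteins into alpha granules and pass transcripts and granules on to platelets, which have no nucleus. Ccl5 (RANTES) is a CC chemokine that attracts T cells and monocytes. It is made by memory T cells and natural killer (NK) cells and is also stored in alpha granules. For these reasons Pf4 and Ppbp transcripts in a mononuclear cell preparation are commonly read as a mark of platelets that came along with it.

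Platelet and PBMC transcriptomes of female C57BL/6 mice were compared 14 days after injection, the mice being 6 to 8 weeks old at the start per the methods of the study. The control (C) group was injected with HBSS saline, and the tumor cells of the other groups were injected under the right flank. The S group received a suboptimal dose of 2000 B16F10 melanoma cells, an established mouse line, and had no tumor visible at autopsy. The O group received 100000 B16F10 cells and carried a large tumor. The question put by the design is whether platelet RNA tells mice with an occult tumor from both other groups. Per the study, most mice given the S dose stayed free of tumor. Its S pools therefore also held mice that might never form one, which the study says lowers the fold changes. Each group had 5 platelet and 5 PBMC libraries, 30 in all, and each library was a pool of mice, so that mice within a pool cannot be told apart. By the labels, the platelet pools held 5 or 10 mice in the C group, 10 in the S group and 3 to 5 in the O group, and the PBMC pools held 4 or 5 mice in the C and S groups and 3 to 5 in the O group. Platelets were pelleted from platelet-rich plasma, and PBMCs were isolated from the lower layer left by the same slow spin of EDTA blood.

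The start sites of Pf4 and Ppbp, which stand side by side and have the highest member levels in platelets, are shown by the 250 bases upstream of each gene. The sequences are RefSeq promoter entries on GRCm38.p6, plus strand, chr5:90772185-90772434 for Pf4 and chr5:90768268-90768517 for Ppbp, and 2 of the 3 members had an entry (Ccl5 did not). Capitals mark matches to a TATA box (TATAAA) or to the ETS core GGAAG, which appears as CTTCC where it lies on the minus strand.
Pf4: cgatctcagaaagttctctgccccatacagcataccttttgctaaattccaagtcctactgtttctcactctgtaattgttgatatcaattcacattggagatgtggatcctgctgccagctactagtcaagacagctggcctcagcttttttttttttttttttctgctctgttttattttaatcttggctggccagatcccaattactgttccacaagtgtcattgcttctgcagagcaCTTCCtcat
Ppbp: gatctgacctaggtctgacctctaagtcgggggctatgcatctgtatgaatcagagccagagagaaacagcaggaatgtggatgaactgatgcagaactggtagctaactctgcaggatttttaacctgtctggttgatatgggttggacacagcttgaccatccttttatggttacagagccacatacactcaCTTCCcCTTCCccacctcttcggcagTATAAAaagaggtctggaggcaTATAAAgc
The Pf4 window held 1 match to the ETS core, 9 to 5 bases before the start. The Ppbp window held a pair of TATAAA matches, at 30 to 25 and 8 to 3 bases before the start, and a pair of ETS core matches, at 56 to 52 and 50 to 46 bases before it. Over 32536 promoter windows of the same length, 12.3% held TATAAA and 64.1% held GGAAG on either strand. The letters GATAA (GATA factors), TGTGGT (RUNX factors) and TGACAG (MEIS factors), found in 22.5%, 14.0% and 15.8% of the windows, were in neither of these 2 windows, which says only that these letters are not there. The GC content was 41.2% for Pf4 and 47.2% for Ppbp.

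Total counts were 12259036 to 25360080 in platelet libraries and 13390983 to 15973449 in PBMC libraries. The fewest member reads were 295, for Ccl5 in O platelet replicate 1, so that all members were well counted in all libraries. Hemoglobin transcripts took 4.02% to 39.0% of platelet and 3.23% to 24.5% of PBMC counts, with the highest share in O platelet replicate 1. Levels are therefore given as CPM, read counts divided by a library size scaled with TMM factors over all 30 libraries, and as RPKM (the same value per kilobase of exon) where genes are set against each other. These factors ran from 0.386 to 1.01 in platelets and from 0.931 to 1.77 in PBMCs. The labelled cell types were checked against marker lists. All 22 tested genes of the 24-gene platelet list were higher in platelet libraries, while no gene of a 20-gene T and NK cell (T/NK) list was at 0 across any group of platelet libraries. The summed T/NK level was 266 to 809.9 CPM in platelets and 698 to 1496.5 CPM in PBMCs, and the erythroid list had the highest group medians of all marker lists in both fractions. In 1 PBMC library, S replicate 3, 32900 genes had a count, against at most 22991 in the other PBMC libraries.

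In platelets, Pf4 and Ppbp were among the most abundant transcripts, while Ccl5 was a moderate one. Per length, Pf4 had a median of 9144 RPKM over the 15 platelet libraries (range 3251 to 28032) and stood at rank 6 to 12 of all genes. Ppbp had a median of 7488 RPKM (2843 to 18467) at rank 7 to 14. Ccl5 had a median of 149.5 RPKM (59.2 to 218) at rank 251 to 988. Ranked by CPM instead, the group medians were 16 to 25 for Pf4, 17 to 19 for Ppbp and 1041 to 1306 for Ccl5. The RPKM level of Pf4 exceeded that of Ppbp in 15 of 15 platelet libraries, with a ratio of 1.01 to 2.54. Both CXC genes exceeded Ccl5 in every platelet library, Pf4 by a ratio of 24.1 to 370.0 and Ppbp by 21.0 to 146.

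The CPM level of Pf4 in platelets, by replicates 1 to 5, was 10413, 9937, 5686, 5580.1 and 4573 in the C group. It was 6593, 6802, 9444, 4592 and 3489 CPM in the S group, and 15796, 11488, 5556, 20211 and 2344 CPM in the O group. The O group held both the highest and the lowest Pf4 level of all platelet libraries, and the 3 groups overlapped. The highest, replicate 4, was a pool of 3 mice, as was replicate 1, and the lowest, replicate 5, was a pool of 5. The group means were 7238 ± 2721 (C), 6184 ± 2290.2 (S) and 11079 ± 7291 CPM (O) (SD, n = 5 each).

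Ppbp, which encodes the CXCL7 precursor, was at 13369, 13261, 5826, 7965 and 6781 CPM in C platelets. Its level was 8541, 8109, 12197, 5579 and 4023 CPM in S platelets and 9333, 12783, 5926, 20000.3 and 3079 CPM in O platelets. Its means were 9440.4 ± 3617 (C), 7689.9 ± 3127 (S) and 10224 ± 6566 CPM (O) (SD, n = 5 each). The highest and lowest Ppbp libraries were the same O replicates, 4 and 5, as for Pf4. In O replicate 1, by contrast, Pf4 was second highest of the platelet libraries while Ppbp stood among the others.

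Ccl5 in C platelets was at 119, 148, 209, 93.6 and 111 CPM. It was at 153, 166, 156, 121 and 90.3 CPM in S platelets and at 56.8, 153, 191, 144 and 129.7 CPM in O platelets. The group means of this CC chemokine lay close together, at 136 ± 45.2 (C), 137 ± 31.2 (S) and 135 ± 49.2 CPM (O) (SD, n = 5 each). The lowest Ccl5 library was O replicate 1, the library with the largest hemoglobin share. Within platelet groups the coefficient of variation was 37.0% to 65.8% for Pf4, 38.3% to 64.2% for Ppbp and 22.7% to 36.5% for Ccl5. That order depended on the scaling, since with plain CPM it was 27.1% (C), 19.9% (S) and 60.7% (O) for Pf4, 27.1%, 24.3% and 62.2% for Ppbp, and 50.0%, 14.4% and 49.9% for Ccl5. In the O platelets, 97.0% of 13878 genes had a smaller SD of log2 (CPM + 1) than Pf4, 94.5% a smaller one than Ppbp and 79.1% a smaller one than Ccl5.

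**Figure D1:**
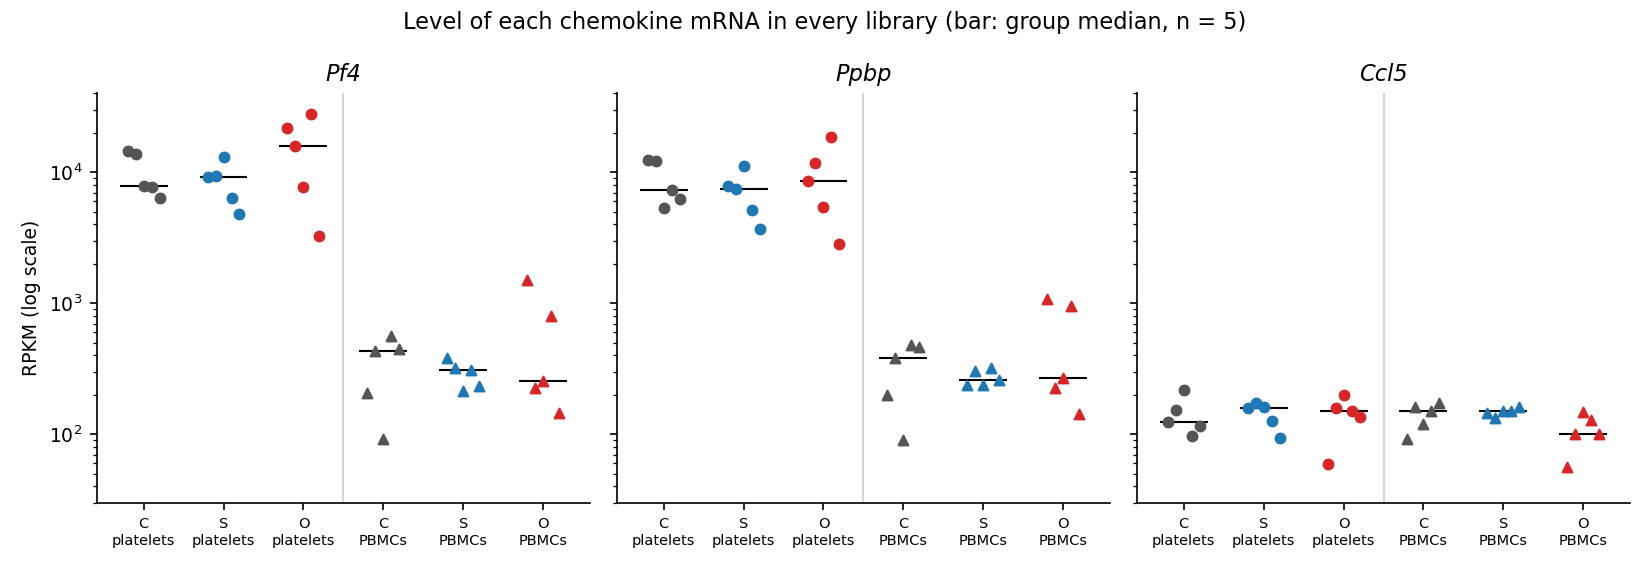
Level of Pf4, Ppbp and Ccl5 in each library, in RPKM on TMM-scaled library sizes, with a log axis. Circles mark platelets and triangles PBMCs, replicates 1 to 5 run from left to right, and a bar marks the group median (n = 5). Pf4 and Ppbp lie between 2843 and 28032 RPKM in platelets and at or below 1512 RPKM in PBMCs. Ccl5 lies between 59.2 and 218 RPKM in platelets and between 56.2 and 173 RPKM in PBMCs. The C, S and O groups overlap for each gene.

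In PBMCs, Pf4 and Ppbp fell far lower, to within reach of Ccl5, and they spread more widely than Ccl5 within each group. The median RPKM was 308 for Pf4 (92.5 to 1512, rank 19 to 241), 271 for Ppbp (90.8 to 1085, rank 23 to 247) and 144 for Ccl5 (56.2 to 173, rank 135 to 646). By CPM the group medians of the rank were 244 to 573 for Pf4, 153 to 275 for Ppbp and 770 to 1284 for Ccl5. Per length, Pf4 exceeded Ppbp in 9 of 15 PBMC libraries, and each of the CXC genes exceeded Ccl5 in 14 of 15.

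The CPM level of Pf4 was 148, 310.3, 66.7, 408 and 321 in C PBMCs, 274, 229.5, 154, 222 and 169.7 in S PBMCs, and 1089.9, 163, 185, 581 and 104 in O PBMCs. Ppbp was at 216, 418, 98.3, 516 and 506 CPM in C PBMCs, at 259.8, 331, 258, 350.1 and 279 CPM in S PBMCs, and at 1176, 245, 293, 1026 and 155 CPM in O PBMCs. For both genes the 5 S pools lay inside the range of the C pools and of the O pools, and the top of the O range rested on replicates 1 and 4. The coefficient of variation of Pf4 was 55.6% (C), 23.0% (S) and 98.2% (O), and that of Ppbp was 52.9%, 14.3% and 83.2%. Ccl5 was at 88.2, 156, 115, 145 and 166 CPM in C PBMCs, at 138, 127, 144, 145 and 155 CPM in S PBMCs, and at 54.0, 96.8, 141, 124 and 97.3 CPM in O PBMCs. Ccl5 thus overlapped between groups too, with the S pools closest together (a coefficient of variation of 7.31%) and the lowest pool again being O replicate 1. In S PBMCs, 20.2% of 15398 genes had a smaller SD of log2 (CPM + 1) than Ccl5, against 93.0% in C and 91.3% in O PBMCs.

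Between platelet groups, none of the 3 chemokine genes passed the test. With edgeR's quasi-likelihood test, 0 of 3 members were called at an adjusted P under 0.05 in the S against C, S against O and O against C comparisons, where 0.00754%, 0% and 0% of all tested genes were called. At an unadjusted P under 0.05, 0 of 3 members passed as well, against 6.42%, 13.9% and 4.79% of all genes, and DESeq2 also called 0 of 3 at either threshold.

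For S against C platelets the log2 difference of Pf4 was -0.19 ± 0.33 (SE; adjusted p = 0.919 by edgeR's quasi-likelihood test). Ppbp differed by -0.26 ± 0.35 and Ccl5 by 0.03 ± 0.23. With plain CPM these 3 values were -0.0019, -0.068 and 0.17, and Ppbp in S against O was at -0.17. For S against O the differences were -0.76 ± 0.52 for Pf4 (adjusted p = 0.517 by edgeR), -0.32 ± 0.48 for Ppbp and 0.10 ± 0.28 for Ccl5. For O against C they were 0.58 ± 0.55 for Pf4 (adjusted p = 0.914 by edgeR), 0.07 ± 0.50 for Ppbp and -0.08 ± 0.31 for Ccl5. Leaving out 1 library turned the sign of Ccl5 in all 3 comparisons and of Ppbp in S against O and O against C. Ppbp in S against C moved to -0.48 without S replicate 3 and -0.10 without C replicate 1. Pf4 kept its sign but moved to -0.03 in S against C without C replicate 1, and to -0.47 in S against O and 0.28 in O against C without O replicate 4. The 3 comparisons share groups, so their values do not stand for separate evidence. The 95% interval of the Pf4 difference, S against C, ran from -0.84 to 0.45 on the log2 scale.

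Other genes of platelet libraries moved beside them at the unadjusted threshold, and their part in the member values was not tested. At that threshold 4.29% of all genes were higher and 2.13% lower in S against C platelets, 7.23% and 6.67% in S against O, and 2.61% and 2.17% in O against C, and the median over all genes was -0.01 in each. In S against C platelets, 7 of 20 T/NK genes were higher and 0 lower (median log2 difference 0.37) and 4 of 10 B cell genes were higher (median 0.44), while 0 of 22 platelet genes were higher and 1 lower (median -0.24). In S against O platelets, 14 T/NK genes were higher and 0 lower (median 0.83), against 0 higher and 1 lower of the platelet genes. There, 7 of 10 B cell genes (median 0.97) and 4 of 10 monocyte and macrophage genes were higher as well, and 6 of 9 neutrophil genes and 2 of 10 erythroid genes were lower. In O against C platelets, 6 T/NK genes (median -0.44) and 3 B cell genes (median -0.49) were lower and 4 neutrophil genes higher, and 0 of 22 platelet genes passed (median 0.04). With plain CPM, 0 T/NK and 0 B cell genes were lower and 8 neutrophil genes higher in O against C, and in S against C 11 T/NK, 6 B cell and 5 monocyte and macrophage genes were higher. By adjusted P, edgeR called 0 of these list genes, and DESeq2 called 8 T/NK and 2 B cell genes higher and 1 neutrophil gene lower in S against O platelets. In a bulk library, fewer cells of a type and less RNA per cell cannot be told apart.

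Between PBMC groups the members again did not pass. edgeR's quasi-likelihood test called 0 of 3 at an adjusted P under 0.05 in S against C, S against O and O against C, beside 0.0330%, 0% and 0% of all genes. At the unadjusted threshold it passed 0 of 3 in each, beside 2.64%, 12.2% and 11.9% of all genes, and DESeq2 called 0 of 3 by adjusted P and passed 1, Ccl5 in S against O, at the unadjusted threshold.

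Pf4 differed by -1.13 ± 0.59 on the log2 scale in S against O PBMCs (SE; adjusted p = 0.452 by edgeR's quasi-likelihood test) and Ppbp by -1.07 ± 0.53 (adjusted p = 0.433 by edgeR). These were the largest member differences between groups with TMM factors, and without O replicate 1 they were -0.37 and -0.61. With plain CPM both were -0.47, smaller in size than the 0.74 of Ccl5. Ccl5 went the other way, by 0.41 ± 0.20 (unadjusted p = 0.0593 and adjusted p = 0.423 by edgeR, and 0.0466 and 0.371 by DESeq2), and by 0.27 without O replicate 1. In O against C PBMCs the differences were 0.87 ± 0.69 (Pf4), 0.83 ± 0.63 (Ppbp) and -0.33 ± 0.23 (Ccl5), and without O replicate 1 they were 0.11, 0.36 and -0.19. With plain CPM Pf4 was at 0.20 and Ppbp at 0.21 in O against C. With plain CPM (no scaling factors) the Ccl5 values were 0.74 in S against O (unadjusted p = 0.0156, adjusted p = 0.184 by edgeR) and -0.67 in O against C (unadjusted p = 0.0343, adjusted p = 0.161 by edgeR). That scaling moved the median of all genes by 0.36 and -0.37 in these 2 comparisons. In S against C PBMCs, Pf4 differed by -0.24 ± 0.37, Ppbp by -0.23 ± 0.34 and Ccl5 by 0.09 ± 0.14. With same-numbered pools paired these were -0.04, -0.03 and 0.12, and without C replicate 4 Pf4 and Ppbp were at -0.0015 and -0.05.

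Beside these differences, most T/NK genes and all tested erythroid genes passed the unadjusted threshold in S against O PBMCs. Over all genes, 4.43% were higher and 7.80% lower at the unadjusted threshold in S against O PBMCs, and 7.56% and 4.39% in O against C, with medians of -0.000848 and 0.00147. In S against O PBMCs, 17 of 20 T/NK genes were higher at the unadjusted threshold (median 0.43) and 10 erythroid genes were lower (median -2.61), while of 22 platelet genes 1 was higher and 2 were lower (median -0.76), of 10 neutrophil genes 3 were lower, and 0 B cell and 0 monocyte and macrophage genes passed. The median of the T/NK list was close to the 0.41 of Ccl5, and the median of the platelet list was of the same sign as Pf4 and Ppbp. In O against C PBMCs, 12 T/NK genes were lower (median -0.36), 10 erythroid genes were higher (median 2.83) and 0 platelet genes passed either way (median 0.58), nor did B cell or monocyte and macrophage genes, while 1 neutrophil gene was higher. With plain CPM, 20 T/NK, 4 B cell and 4 platelet genes were higher and 0 platelet genes lower in S against O (platelet list median -0.22), and in O against C 19 T/NK and 4 platelet genes were lower (platelet list median -0.03). edgeR called 0 of these genes by adjusted P, and DESeq2 called 5 T/NK genes higher and 8 erythroid genes lower in S against O, and 3 T/NK genes lower and 8 erythroid genes higher in O against C. The summed platelet list was 986 to 5348 CPM in C, 2269 to 3516 CPM in S and 1773 to 8951 CPM in O PBMCs, and its part in the Pf4 and Ppbp values was not tested.

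**Figure D2:**
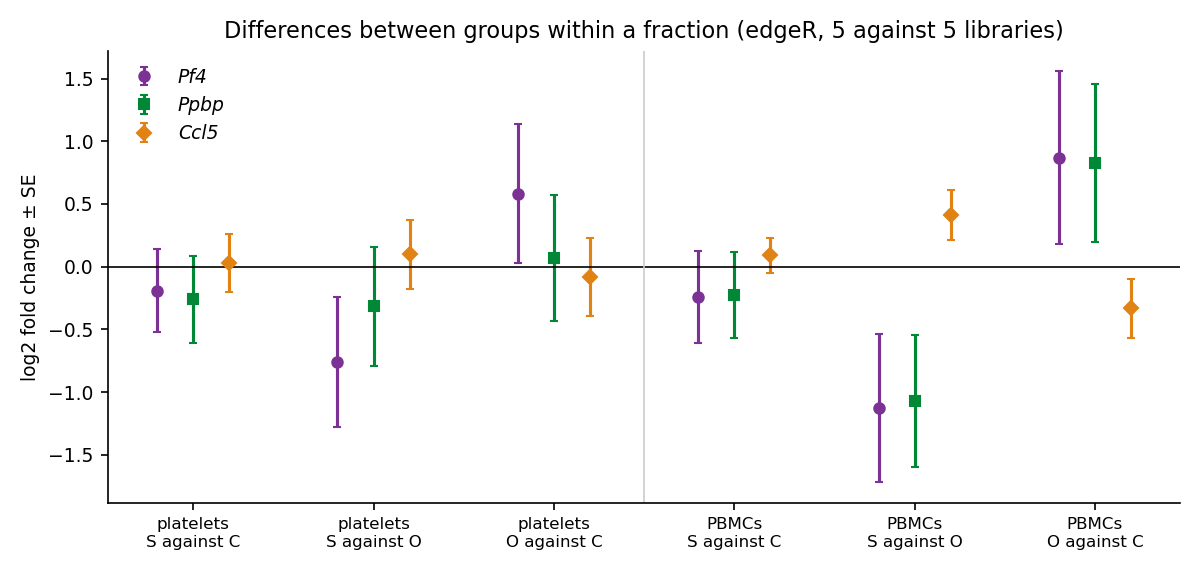
Log2 difference ± SE of each member in the 6 comparisons between groups (edgeR quasi-likelihood fit, 5 against 5 libraries). Circles mark Pf4, squares Ppbp and diamonds Ccl5, with platelet comparisons on the left and PBMC comparisons on the right. With TMM factors, as drawn, the largest differences are the -1.13 of Pf4 and the -1.07 of Ppbp in S against O PBMCs. Of the 18 values, 0 were called. With plain CPM, not drawn, Pf4 and Ppbp were each -0.47 there, smaller in size than the 0.74 of Ccl5.

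Whether a group difference was itself different between platelets and PBMCs was tested in one fit over all 30 libraries. For S against C the platelet difference minus the PBMC difference was 0.03 for Pf4, -0.05 for Ppbp and -0.07 for Ccl5 on the log2 scale. For S against O it was 0.17, 0.56 and -0.44, and for O against C it was -0.14, -0.61 and 0.37. The lowest adjusted p of these by edgeR was 0.614. With plain CPM Ppbp was at 0.30 in S against O and -0.10 in O against C, and Ccl5 at -0.64 and 0.75. Leaving out 1 library moved Ppbp to between 0.13 (without PBMC O replicate 1) and 0.95 (without platelet O replicate 4) in S against O, and to between -1.0 and -0.18 without the same libraries in O against C. Ccl5 moved to -0.25 in S against O and 0.21 in O against C without platelet O replicate 5, and to 0.58 in O against C without platelet C replicate 3. edgeR called 0 of 3 members in each, beside 0% of all genes by adjusted P and 5.38%, 13.6% and 6.59% at the unadjusted threshold.

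Between fractions, Pf4 and Ppbp separated platelets from PBMCs completely and Ccl5 did not. The lowest platelet library held 2344 CPM of Pf4 against 1089.9 CPM in the highest PBMC library, and 3079 against 1176 CPM of Ppbp. Pf4 was 28.1-fold higher in platelets (log2 4.81 ± 0.36 SE, adjusted p = 2.07e-13 by edgeR's quasi-likelihood test with the group as covariate). Ppbp was 23.1-fold higher (log2 4.53 ± 0.33, adjusted p = 1.56e-13 by edgeR). Thus 2 of 3 members were called higher in platelets, where 81.0% of 16498 genes were called, 35.8% higher and 45.2% lower. Within the C, S and O libraries alone the log2 difference was 4.86, 5.07 and 4.71 for Pf4 and 4.75, 4.89 and 4.14 for Ppbp.

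The mean PBMC level of Pf4 was 3.47% (C), 3.39% (S) and 3.83% (O) of the mean platelet level, and that of Ppbp was 3.72%, 3.84% and 5.66%. With plain CPM these shares were 9.76%, 8.07% and 7.77% for Pf4 and 10.5%, 9.19% and 11.3% for Ppbp, and the log2 differences were 3.56 and 3.28. The platelet list moved the same way, with 22 of 22 tested genes higher, 0 lower and a median of 4.17, from 1.93 for F13a1 (coagulation factor XIII A chain) to 5.32 for Gng11 (a G protein gamma subunit). Of these, 2 had a larger difference than Pf4 and 6 a larger one than Ppbp. The median of all tested genes was -0.17.

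Ccl5 had a log2 difference of 0.12 ± 0.15 between platelets and PBMCs with TMM factors (adjusted p = 0.452 by edgeR's quasi-likelihood test), but with plain CPM it was lower in platelets by edgeR, at -1.09 (adjusted p = 5.07e-06), a scaling that moved the median of all genes by -1.21. Without O platelet replicate 1 and with TMM factors it was called higher, at 0.29 (adjusted p = 0.0448 by edgeR), and without O replicate 1 of both fractions it was 0.23 and not called (adjusted p = 0.0685 by edgeR). The mean PBMC level was 98.4% (C), 103% (S) and 76.2% (O) of the platelet level with TMM factors and 258%, 240.2% and 154% with plain CPM. The direction for this gene therefore depended on the scaling. The T/NK list went lower in platelets with TMM factors, with 17 of 20 genes lower, a median of -1.19 and the extreme of -2.52 for Cd3e (a chain of the T cell receptor complex), and with plain CPM 20 of 20 were lower. With TMM factors 1 gene was higher, Eomes (a transcription factor of cytotoxic lymphocytes) at 0.53, and it was lower at -0.66 with plain CPM. The B cell list had 8 of 10 genes lower, the monocyte and macrophage list 8 of 10 and the neutrophil list 7 of 10 (6 with RLE factors and 4 by DESeq2), while 10 of 10 erythroid genes were higher (4 with plain CPM), where 45.2% of all genes were lower and 35.8% higher. With plain CPM 10 of 10 were lower in each of the B cell, monocyte and macrophage, and neutrophil lists. Pax5, the 1 B cell gene higher by edgeR and named after its values were seen, turned from 0.38 to -0.78.

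Ratios within a library do not depend on the scaling between libraries. In reads, Ppbp over Pf4 was 1.28, 1.33, 1.02, 1.43 and 1.48 in C platelets, 1.30, 1.19, 1.29, 1.22 and 1.15 in S platelets and 0.591, 1.11, 1.07, 0.990 and 1.31 in O platelets. In PBMCs it was 1.46, 1.35, 1.47, 1.26 and 1.58 (C), 0.950, 1.44, 1.68, 1.58 and 1.64 (S), and 1.08, 1.501, 1.59, 1.76 and 1.495 (O). The ratio was lower in platelets than in PBMCs by 0.31 on the log2 scale, with means of 0.22 ± 0.32 and 0.52 ± 0.24 (SD, n = 15 each, 2-sided permutation test within groups with 100000 resamples, p = 0.00356). The fractions overlapped, and the difference was -0.13 (p = 0.286) in the C, -0.22 (p = 0.198) in the S and -0.58 (p = 0.0238) in the O libraries alone by exact permutation tests. The same-numbered O pools hold equal numbers of mice in both fractions, and with these paired the ratio was lower in platelets in 5 of 5 pairs (-0.87 to -0.19), where an exact sign-flip test gave p = 0.0625, the smallest it can give. Without O platelet replicate 1, which had the lowest ratio, it was -0.25.

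Ccl5 over Pf4 had a mean log2 of -5.75 ± 0.98 in platelets and -0.93 ± 1.17 in PBMCs (SD, n = 15 each), a difference of -4.83 (permutation test, p = 2e-05). Adjusted over both ratios, the p of Ppbp over Pf4 stayed at 0.00356 and that of Ccl5 over Pf4 was 4e-05. Between groups within a fraction, 30 ratio tests were run with exact permutation tests, of which 0 passed the threshold and whose smallest possible p was 0.00794. The lowest p was 0.0714, for Ppbp over Pf4 in O against C platelets (-0.41 ± 0.22 SE on the log2 scale, adjusted p = 0.905), and without O platelet replicate 1 that difference was -0.22.

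Members were also set against the mean log2 (CPM + 1) of a list, where the added 1 lifts genes near 0, such as Gp1bb, and so lowers the ratio most in the fraction that has less of the list. For the platelet list that fraction is the PBMCs, so these ratios give no direction between fractions. Log2 Pf4 over the platelet list had a mean of 3.21 (2.70 to 4.27) in platelets and 2.09 (1.67 to 3.12) in PBMCs, and Ppbp 3.42 (2.91 to 3.89) and 2.62 (2.11 to 3.49). The difference between fractions was not tested. Ccl5 over the mean log2 level of the T/NK list had a mean of 2.70 ± 0.49 (1.66 to 3.38) in platelets and 1.40 ± 0.22 (0.94 to 1.64) in PBMCs (SD, n = 15 each). These 2 ranges did not overlap, so that each platelet library held more Ccl5 for its T/NK transcripts than any PBMC library, where the added 1 lowers the ratio in platelets, the fraction with less of that list, and by group the platelet mean was 2.74 (C), 2.31 (S) and 3.04 (O). What contributes to this gap was not tested. With TMM factors, 2 of 20 T/NK genes and 2 of 10 B cell genes had a larger difference between platelets and PBMCs than Ccl5.

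**Figure D3:**
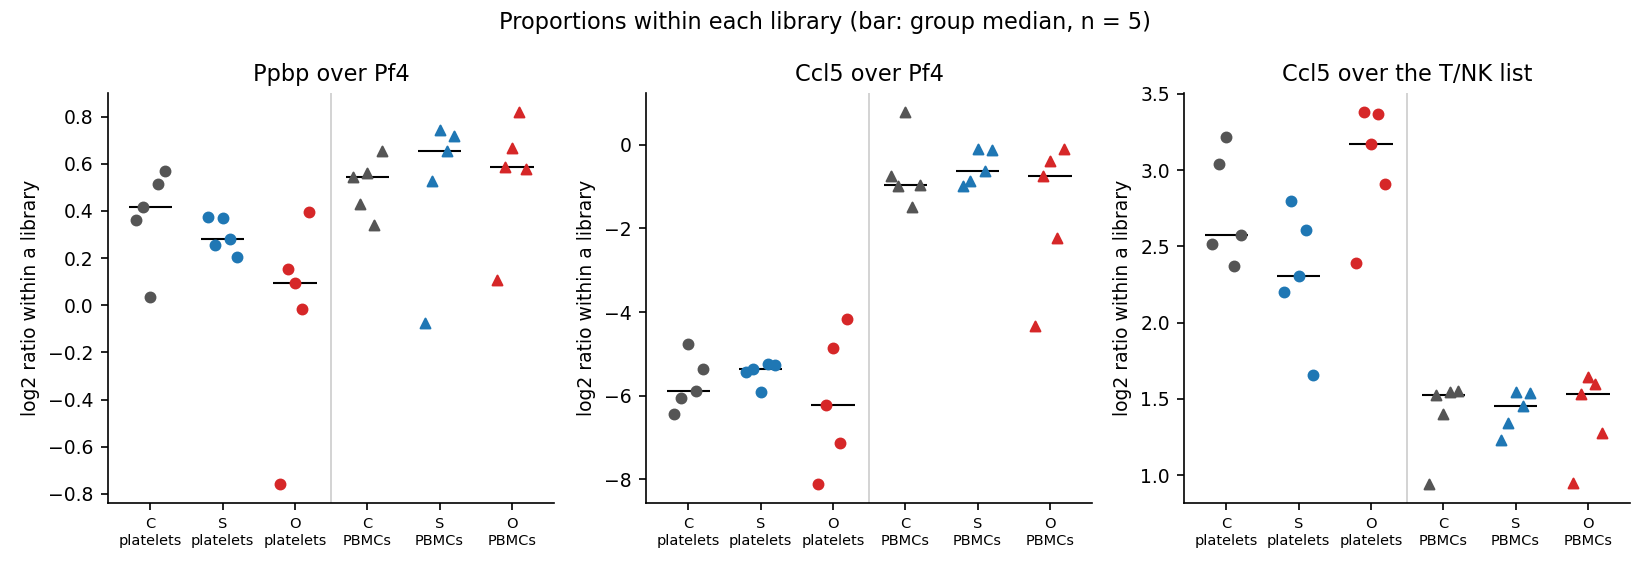
Log2 ratios within each library of Ppbp over Pf4, Ccl5 over Pf4 and Ccl5 over the mean of the T/NK list, for the C, S and O groups of platelets (circles) and PBMCs (triangles), with a bar at the group median (n = 5). Ccl5 over the T/NK list lies between 1.66 and 3.38 in platelets and between 0.94 and 1.64 in PBMCs, and the lowest Ppbp over Pf4 value belongs to O platelet replicate 1.

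Across the 15 libraries of a fraction, Pf4 and Ppbp rose and fell together, while Ccl5 over all 15 libraries had no correlation past the threshold with either. All 14 relations were computed on log2 (CPM + 1), so that both axes share the library scaling, and tested by permutation with 100000 resamples, for which the smallest possible p is 1e-05. In platelets, Pf4 and Ppbp had r = 0.924 and rho = 0.914 (permutation p = 1e-05, adjusted p = 2.8e-05), and r = 0.849 without the 2 libraries farthest from the median. In PBMCs they had r = 0.971 and rho = 0.957 (permutation p = 1e-05, adjusted p = 2.8e-05), and r = 0.944 without the 2 farthest. Ppbp followed the mean of the platelet list with r = 0.961 in platelets and 0.963 in PBMCs, and Pf4 followed it with 0.871 and 0.984.

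Ccl5 against Pf4 had r = -0.075 (permutation p = 0.791) in platelets and -0.230 (p = 0.393) in PBMCs, and against Ppbp 0.084 (p = 0.768) and -0.156 (p = 0.566). The PBMC values turned to 0.485 and 0.653 (permutation p = 0.0151, adjusted p = 0.0264 for the latter) without the 2 libraries farthest from the median, O replicate 1 with C replicate 3 for Pf4 and with O replicate 4 for Ppbp. Over all 15 libraries the rank correlation was 0.268 and 0.336, so the relation of Ccl5 to both genes in PBMCs rests on which of these libraries are included. Against the mean of the T/NK list, Ccl5 had r = 0.872 and rho = 0.796 in PBMCs (permutation p = 9e-05, adjusted p = 0.00018), 0.860 without the 2 farthest libraries and 0.851 on deviations from the group means. In platelets the same relation had r = 0.426 and rho = 0.425 (permutation p = 0.112, adjusted p = 0.197), against r = 0.600 (p = 0.0181) on deviations from the group means and 0.729 (p = 0.00302) with plain CPM.

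**Figure D4:**
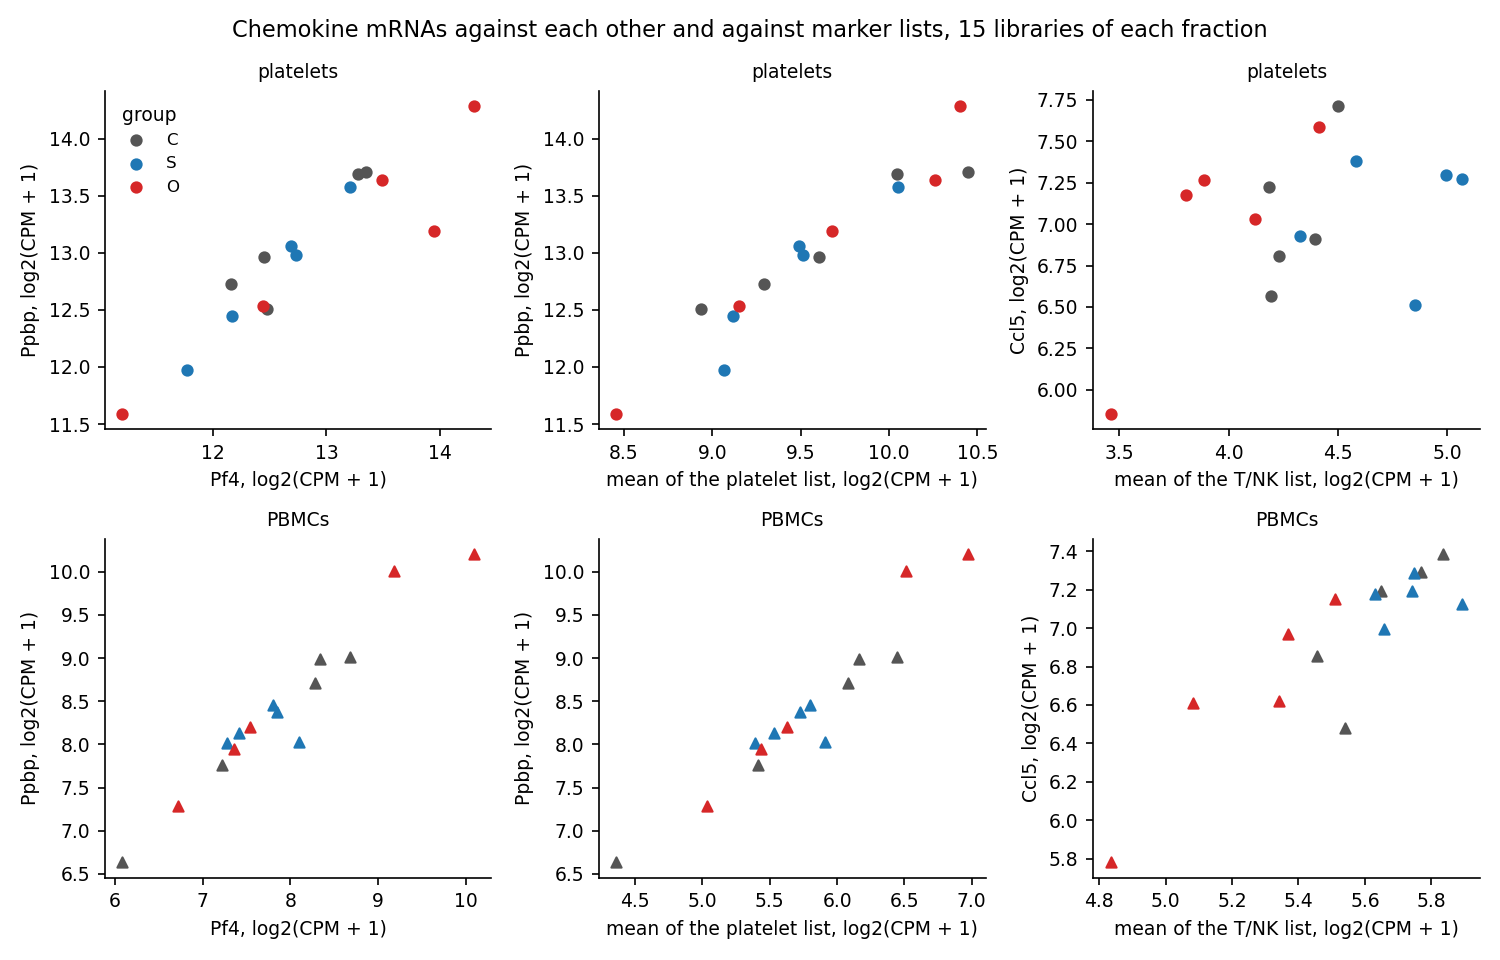
Log2 (CPM + 1) of Pf4 against Ppbp, of Ppbp against the mean of the platelet list and of Ccl5 against the mean of the T/NK list, 1 point per library and 15 per fraction, in platelets (circles) and PBMCs (triangles) of the C (grey), S (blue) and O (red) groups. The first and second relations are tight in both fractions (r = 0.924 to 0.971), and Ccl5 against the T/NK list has r = 0.872 in PBMCs and 0.426 in platelets, where it was not past the threshold.

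The genes whose log2 (CPM + 1) pattern was most like that of a member over the 15 libraries differed by fraction. This is a ranking of all genes by Pearson's r with no test. In PBMCs the 5 genes nearest to Pf4 were Tmem40 (0.996), Slc24a3 (0.994), Myl9 (0.991, myosin light chain 9), Gp9 (0.991, glycoprotein IX of the von Willebrand factor receptor) and F2rl2 (0.990, the thrombin receptor PAR3). The 5 nearest to Ppbp were Cald1 (0.985), Plek (0.983, pleckstrin), Slc24a3 (0.981), F2rl2 (0.981) and Alox12 (0.980, platelet 12-lipoxygenase). The lists of Pf4 and Ppbp shared Slc24a3 and F2rl2. In platelets the nearest to Pf4 were Smdt1 (0.990), Tspo (0.989), Atp6v0e (0.987), Spcs1 (0.986) and Cox6b1 (0.983), and to Ppbp Myl6 (0.981), BC031181 (0.981), Clu (0.980, clusterin), Laptm4a (0.980) and BC064078 (0.980). Ppbp itself was at position 121 for Pf4 and Pf4 at position 123 for Ppbp in platelets, against positions 42 and 18 in PBMCs.

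For Ccl5 the nearest genes in PBMCs were Osbpl3 (0.973), Gzma (0.958, the cytotoxic protease granzyme A), Il2rb (0.946, the interleukin-2 receptor beta chain), Samd3 (0.932) and Heatr9 (0.930). Heatr9 is the neighbour of Ccl5 on the same strand, 3602 bases away with 0 genes between. In platelets they were Psmb8 (0.933, an immunoproteasome subunit), Ifitm10 (0.921), Klra8 (0.917, an NK cell receptor), Ssu72 (0.916) and Limd2 (0.913). Of the 5 nearest to Ccl5 in PBMCs, 2 belong to the T/NK list, and of the 5 nearest to Pf4 and to Ppbp in PBMCs, 2 and 1 belong to the platelet list. In platelets, 0 of the 5 nearest to any member belong to either list.

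Pf4 and Ppbp sit in a cluster of CXC chemokine genes on chromosome 5, flanked by Rassf6 and Mthfd2l, and the genes of that cluster were not alike in the 2 fractions. Of its 6 other tested genes, 3 were called higher in platelets and 2 lower by edgeR, where 35.8% and 45.2% of all genes were. Pf4 and Ppbp included, edgeR called 5 higher and 2 lower with TMM factors and 5 and 3 with plain CPM, and DESeq2 called 5 and 3. Cxcl5, next to Ppbp and encoding a neutrophil attractant, was higher by a log2 of 4.69 ± 0.27, close to the difference of Ppbp, though its mean level was only 21.4 ± 6.68 (C), 20.95 ± 9.52 (S) and 19.5 ± 11.7 CPM (O) in platelets and 1.04, 0.86 and 0.52 CPM in PBMCs. Mthfd2l (a mitochondrial folate enzyme) was higher by 3.97 and Cxcl3, next to Pf4, by 3.01. Cxcl2, another neutrophil attractant, was lower by edgeR at -4.65, with 40.2 ± 32.4 (C), 69.7 ± 82.5 (S) and 122 ± 120.3 CPM (O) in PBMCs. Cxcl1 was lower at -1.88, and Rassf6 had -0.77 (adjusted p = 0.0633 by edgeR). Both had a mean under 1 CPM in each fraction and, outside the rule for named genes, are named after their values were seen because the counts are small, and Cxcl15 had no read in any library. The Pf4 and Ppbp differences were thus shared in direction by Cxcl5 and Cxcl3 and opposite to that of Cxcl2, under plain CPM as well.

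**Figure D5:**
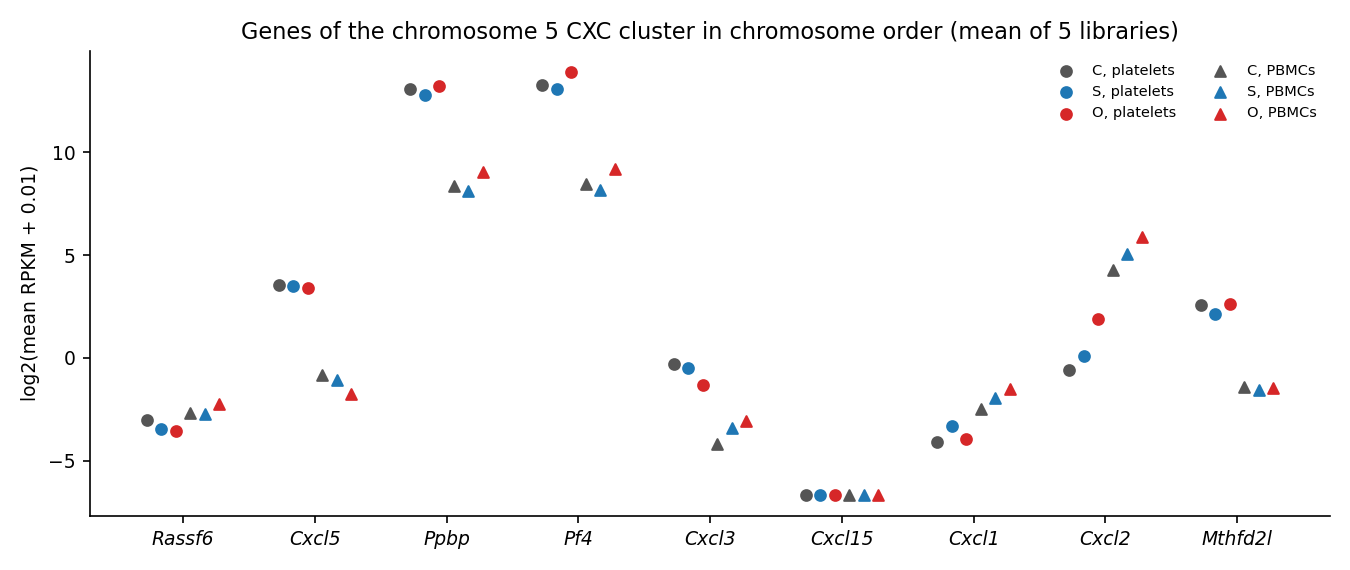
Mean level of the genes of the chromosome 5 CXC cluster, in chromosome order, as log2 (mean RPKM + 0.01) of 5 libraries per group, with circles for platelets and triangles for PBMCs. Ppbp and Pf4 stand highest in both fractions, Cxcl5, Cxcl3 and Mthfd2l are higher in platelets, Cxcl2 is higher in PBMCs, and Cxcl15 is at 0.

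Of 11 other CXC and CC ligands known in platelets, 9 were tested between the fractions, with 4 higher in platelets and 5 lower (median -1.88), beside 35.8% higher and 45.2% lower and a median of -0.17 over all genes. Besides Cxcl5 and Cxcl3 the higher ones were Cxcl12, the homing factor that binds CXCR4, at 6.95 ± 0.34, and Cxcl16 at 0.79, which was -0.36 with plain CPM. Cxcl12 had a mean of 19.3 (C), 20.5 (S) and 21.997 CPM (O) in platelets and at most 0.23 CPM in PBMCs. The lower ones included the CC chemokines Ccl3 at -3.67 and Ccl4 at -3.42, and the monocyte attractant Ccl2 at -2.53. Ccl5 therefore stood apart in value from Ccl3 and Ccl4, for per length their group means in platelets were at most 5.53 RPKM (Ccl3) and 4.04 RPKM (Ccl4), against 140.5 to 143 RPKM for Ccl5. Between platelet groups, 3 of 7 ligands (2 with RLE factors) were higher in S against C at the unadjusted threshold, where 4.29% of all genes were, namely Ccl4 (1.09), Ccl3 (0.99) and Cxcl16 (0.93), and 0 by adjusted P with edgeR (adjusted p = 0.746 to 0.769) or DESeq2. In S against O platelets 2 of 7 were higher at the unadjusted threshold (7.23% of all genes), Ccl3 (1.26) and Ccl4 (1.17), and in O against C platelets 0 were (1 with plain CPM), with 0 by adjusted P in both by edgeR (adjusted p = 0.279 and 0.303 for Ccl3 and Ccl4) and DESeq2. In O against C PBMCs 1 was higher at that threshold (7.56% of all genes), but 0 with plain CPM, Cxcl2 (1.66, adjusted p = 0.404 by edgeR).

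Of 15 receptors and binding proteins of these chemokines, 13 were tested between the fractions, with 2 higher in platelets and 10 lower (median -1.21), where 45.2% of all genes were lower. The higher ones were the decoy receptors Ackr1 at 2.48 and Ackr2 at 1.03, the latter being -0.21 with plain CPM. Among the lower ones were Lrp1 at -3.08 (a lipoprotein receptor that binds PF4), Cxcr3 at -1.21 and Cd74 at -1.08. Cxcr2, the receptor for the peptides of Ppbp, had -0.95 (adjusted p = 0.136 by edgeR) with TMM factors. With plain CPM 1 of the 13 was higher and 11 were lower, Cxcr2 among the lower. In S against C platelets 3 of 13 were higher at the unadjusted threshold, among them Cxcr3 (0.78) and Sdc4 (0.67), and 0 by adjusted P with edgeR or DESeq2. In S against O platelets 5 of 12 were higher and 1 lower, among the higher Cd74 (1.09), Cxcr3 (0.96) and Sdc4 (0.95), and in O against C 2 were lower. In PBMCs 1 of 13 was higher and 2 lower in S against O, and 1 of 12 was higher in O against C. The shares of all genes were those given above for the marker lists. With plain CPM the platelet counts became 6 higher in S against C, 6 higher and 0 lower in S against O, and 2 higher and 0 lower in O against C, and the PBMC counts became 3 higher and 1 lower in S against O and 0 higher and 2 lower in O against C. By adjusted P, edgeR called 0 of these, while DESeq2 called 2 higher in S against O platelets, 1 lower in S against O PBMCs and 1 higher in O against C PBMCs.

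Of 14 genes of granule storage and release, 11 were higher in platelets and 2 lower (median 2.14, where 35.8% of all genes were higher), as against 7 higher and 6 lower with plain CPM. Srgn, the proteoglycan core on which Pf4 is held in granules, was higher by 2.83. Rab27b (a granule GTPase) was higher by 4.06, the fusion proteins Stx11 and Snap23 by 3.90 and 3.81, and Selp (P-selectin) by 3.58. Nbeal2, which alpha granules need to form, was lower by edgeR at -1.12, and Vps33b, also needed for them, at -0.57.

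Of 13 transcription factors of the megakaryocyte line, 8 were higher in platelets and 2 lower (median 0.74, where 35.8% of all genes were higher), as against 5 higher and 7 lower with plain CPM. Gfi1b was higher by 3.79, Tal1 by 3.70, Gata1 by 3.17, Nfe2 by 2.85 and Meis1 by 1.86. Zfpm1 (1.20), Fli1 (0.74) and Runx1 (0.46) were higher with TMM factors and at -0.06, -0.47 and -0.78 with plain CPM. Klf13 was lower at -0.85 and Usf1 at -0.42. Ets1, the founding ETS factor, had -0.05 and was not called with TMM factors, but was among the 7 lower with plain CPM.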

How the data were processed

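Poly(A) RNA of platelet and PBMC pools was sequenced with a library kit whose strand setting is not given in the sources used here. The deposited values are raw read counts per gene, which the authors made with HISAT2 2.0.5 and featureCounts 1.5.0-p3 per the labels. The processing notes name mm9, but 650 of 671 gene positions checked in the supplement of the study lie as in GRCm38, so coordinates and exon lengths were taken from GRCm38 (GENCODE M21) and promoters from RefSeq. All 30 count columns matched the title of a sample. Because 1 label gives PBMC as cell type for platelet libraries too, the fraction was read from titles and source names. Of 54532 identifiers, 54409 had a symbol. The 2 most alike libraries of a group had a correlation of 0.995, and none were identical.

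Groups were compared pairwise within a fraction (5 against 5) with edgeR 4.0.16 in R 4.3.3, by its quasi-likelihood test on the counts as deposited, after filterByExpr and TMM scaling, 2-sided, with Benjamini-Hochberg adjustment over all genes tested. A call is an adjusted P under 0.05. Fractions were compared over 30 libraries with the group as covariate, and interactions in a fit of 6 group means. SEs are the log2 difference divided by the square root of F. DESeq2 1.42.0, RLE size factors, plain CPM, no filter on low counts, removal of hemoglobin genes, a replicate block and leaving out each library were alternatives. Ratios and correlations were tested with scipy 1.17.1. The fitting code was tested on simulated data. Pools are the replicates, and where mice were not kept apart p-values measure only the spread between pools.

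PBMC pools of S and C with the same number deviated together (r = 0.274 to 0.565, 5 of 5 best with their own number), so the numbers were read as pairs there in the blocked fit. The SEs and calls given for S against C PBMCs are from the fit without pairs. The blocked log2 differences were -0.04 (Pf4), -0.03 (Ppbp) and 0.12 (Ccl5). The 3 members and all gene lists were chosen with earlier results of these data known. Named were the members, the list genes with a mean of at least 1 CPM in either fraction, and the 5 genes most like each member, with Cxcl1, Rassf6 and Cxcl15 added after their values were seen. Comparison columns of the authors were not used. Some genes of the receptor list enter its counts but are not reported here by name.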

Additional observations from a re-analysis of the deposited data

Results flagged for a closer look

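Of 30 sets of 5 libraries examined for a library far from the others, 2 were flagged, and chance flags about 1 in 20. In S PBMCs, the log2 ratio of Ppbp over Pf4 of replicate 1 was -0.0742, against 0.53 to 0.75 in the other 4 libraries, and its gap made up 0.734 of the whole range. In S platelets, the log2 ratio of Ccl5 over Pf4 of replicate 3 was -5.92, against -5.43 to -5.25 in the others, with a gap of 0.730 of the range.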

How the results depend on the processing

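Under settings other than leaving out a library, 409 values stayed the same and 53 moved, while 21 changed sign, 4 were no longer past the threshold and 2 newly were. On leaving out each library the numbers were 1001, 31, 77, 0 and 1, in that order. Tested values stayed the same if they kept their direction and their side of the threshold. Levels and ranks did so if they moved by less than the replicate spread, and counts of genes if they changed by at most 1.5-fold. The edgeR and DESeq2 calls of Pf4 and Ppbp between fractions held under each setting run. With plain CPM, Ccl5 turned to -1.09 between fractions and to 0.078 in O against C platelets, and of the differences between platelet and PBMC effects, Ppbp turned to 0.20 and Ccl5 to 0.10 (S against C), and Pf4 to -0.056 (S against O) and 0.33 (O against C). With no filter on low counts the S against C difference of effects of Ppbp was 0.0042. With a replicate block, Ppbp was -0.13 in O against C platelets, and the difference of effects of Pf4 was -0.21 (S against C) and -0.078 (S against O). With same-numbered O pools paired, the ratios between fractions (-0.58 for Ppbp over Pf4 and -4.54 for Ccl5 over Pf4) could not pass the threshold, since the smallest p is 0.0625. The block changed no edgeR call of a member, and among groups of 1 fraction each of the 5 correlations of same-numbered pools exceeded 0.1 in S and C PBMCs alone, with 4 of 5 best with their own number in O and C platelets and in S and O PBMCs. Without the 3 most abundant platelet genes, O against C platelets had -0.039 for Ppbp and -0.029 for Ccl5 over the list, and with a summed list S against C PBMCs had -0.0079 for Ppbp. Ppbp over Pf4 between fractions was no longer past the threshold in C (-0.13) or S (-0.22) libraries alone. Without hemoglobin genes, mean Ccl5 was 175 CPM in S platelets and 154 CPM in S PBMCs. The causes of these changes were not tested.

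Among correlations in platelets, Pf4 and Ccl5 had rho = 0.10, Ccl5 and the platelet list r = 0.063 with plain CPM, and Ccl5 and the T/NK list r = 0.600 on group deviations and 0.729 with plain CPM. In PBMCs, rho and r without the 2 farthest libraries were 0.268 and 0.485 for Pf4 and Ccl5, 0.336 and 0.653 for Ppbp and Ccl5, and 0.254 and 0.521 for Ccl5 and the platelet list.

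Leaving out 1 library at a time, Pf4 in platelets ran from -0.39 to -0.026 (S against C), -1.03 to -0.47 (S against O) and 0.28 to 0.84 (O against C). It gave a log2 difference in platelets of -0.48 to -0.099 for Ppbp and -0.078 to 0.27 for Ccl5 (S against C), -0.57 to 0.045 for Ppbp and -0.11 to 0.28 for Ccl5 (S against O), and -0.30 to 0.29 for Ppbp and -0.26 to 0.16 for Ccl5 (O against C). It gave -0.024 to 0.17 for Ccl5 in S against C PBMCs and 0.060 to 0.29 for Ccl5 between fractions, the latter called without O platelet replicate 1. The difference of effects ran from -0.21 to 0.29 for Pf4, -0.25 to 0.20 for Ppbp and -0.18 to 0.14 for Ccl5 (S against C), and for Pf4 from -0.54 to 0.61 (S against O) and -0.54 to 0.57 (O against C), the ends of the last 2 being without O replicate 1 of either fraction. Ratios in S against C platelets ran from -0.072 to 0.10 (Pf4 over the platelet list) and -0.15 to 0.018 (Ppbp over it). In S against O platelets they ran from -0.18 to 0.015 (Ppbp) and -0.069 to 0.53 (Ccl5 over the list). In O against C platelets they ran from -0.88 to 0.11 (Ccl5 over Pf4), -0.10 to 0.085 (Ppbp over the list) and -0.28 to 0.36 (Ccl5 over the list). In S against C PBMCs they ran from -0.049 to 0.16 (Ppbp over Pf4), -0.059 to 0.51 (Ccl5 over Pf4), -0.085 to 0.048 (Pf4 over the list), -0.063 to 0.11 (Ppbp over the list) and -0.012 to 0.42 (Ccl5 over the list). Ppbp over Pf4 ran from -0.15 to 0.11 in S against O and -0.020 to 0.16 in O against C PBMCs.

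Genes called over the whole table by edgeR after its filter on low counts, and by DESeq2 with no such filter beyond 1 read per gene, were 1 and 8 (S against C), 0 and 223 (S against O) and 0 and 12 (O against C) in platelets, and 5 and 21, 0 and 240, and 0 and 248 in PBMCs. With no filter on low counts edgeR called 33 in S against C platelets and 12 in S against C PBMCs, and the block called 3 in S against O platelets. The call in S against C platelets was lost with RLE factors, with pairing and when the 3 groups were fitted jointly (0 each), and the joint fit also called 0 in S against C PBMCs. Unadjusted passes in S against C PBMCs were 400 and, with the block, 651. Plain CPM moved the share of passing genes that were higher from 66.8% to 97.7%, 52.0% to 73.3% and 54.6% to 87.0% in platelets, from 46.5% to 32.7%, 36.2% to 91.1% and 63.3% to 7.43% in PBMCs, and from 44.2% to 15.6% between fractions, in the same order.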
